A study of Mus musculus with 75 samples.

Results

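The livers of diet-induced obese mice without the cannabinoid receptor 1 (CB1) were compared with those of wild-type mice on the same diet. All of these mice were given vehicle. The comparison rests on 9 of the 75 microarrays of the series, 4 from livers of CB1R-/- (KO) mice (animals 40, 41, 42 and 44) and 5 from livers of WT mice (samples 1 to 5), chosen by their labels. Both groups were male C57BL/6 mice that ate a high-fat diet with 59.4% of energy from fat for 14 weeks from 2 months of age. Both received 0.5% methylcellulose by gavage on 2 days before the liver was taken. The KO mice carry the deletion in every tissue, so a difference in liver is not specific to loss of the receptor in liver cells. The control mice are described as littermates, and the line was moved from a C57BL/6J to a C57BL/6N background. For a test of whether the genotype difference depends on diet, 10 livers of vehicle-treated mice on chow with 13% of energy from fat were used (5 KO, 5 WT). For a test of whether it was the same under drug, 10 livers of high-fat-fed mice given AM251, an inverse agonist of CB1, at 10 mg per kg were used (5 KO, 5 WT). A further 10 livers, of chow-fed mice given AM251 at 10 mg per kg (5 KO, 5 WT), entered the fit.

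CB1 is a G protein-coupled receptor for the endocannabinoids, lipid messengers that are made from membrane phospholipids. It is most abundant in brain, where its activation increases feeding, and it is present at low levels in liver. In obese mice, fat accumulates in hepatocytes through uptake of fatty acids, their synthesis from carbohydrate, and storage as triglyceride in droplets coated with specific proteins. The mouse liver also differs strongly between the sexes, since the pulsatile growth hormone of males maintains 1 set of genes and the steadier secretion of females another.

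Values are log2 intensities, and every difference is KO minus WT on that scale, ± its standard error from limma. An adjusted p under 0.05 over 19147 genes was the threshold. Median intensities of the 39 liver arrays ran from 25.8 to 28.7, and the 9 arrays compared here had mean correlations of 0.988 to 0.991 with the other liver arrays. Lower values were found for chow-fed KO arrays 17 and 15, at 0.963 and 0.982, and for chow-fed WT array 3, at 0.983. The hepatocyte markers, albumin (Alb) among them, were bright, and their summed intensity was 129000 to 131700 in KO livers and 124500 to 131300 in WT livers. Nothing in the labels says how animals were distributed over plates, and p-values measure only the spread between these livers. Cnr1, the gene of CB1, had 2 probe sets. Probe set 1 read 5.84, 6.09, 5.59 and 5.79 in KO livers and 5.51, 5.92, 5.94, 5.99 and 5.90 in WT livers, with a difference of -0.02 ± 0.11, adjusted p = 0.961. Probe set 2 was dim, at 2.75 ± 0.20 (SD, n = 4) in KO livers and 2.59 ± 0.14 (SD, n = 5) in WT livers. No source used here places the probes inside or outside the deletion, so they do not check the knockout.

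Of 19147 genes, 228 (1.19%) passed the threshold, 92 higher in KO livers (0.48%) and 136 lower (0.71%). The excess of falls depended on the fit, since array weights gave 303 higher and 285 lower and a fit of only both groups 88 higher and 91 lower. The KO and WT arrays did not overlap for 171 of the 228, against 5.66% of all genes (2.92% higher and 2.74% lower in KO livers). The change was over 2-fold for 61 of them, 20 higher and 41 lower, and the median size of the 228 differences was 0.70. An unadjusted p under 0.05 was reached by 2341 genes, where 957 would be expected by chance. The count depended on single animals: it was 96 without KO 42, 75 without KO 44, 80 without WT 2 and 117 without WT 4. The falls included Cyp2b9, a cytochrome P450 that is female-biased in mouse liver, and genes of fat uptake and droplet storage such as Cidea. The rises included Hsd3b5 and Slco1a1, which are male-biased in mouse liver.

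Genes for uptake and storage of fat fell in KO livers. Of 22 measured members of a list of triglyceride assembly and lipid droplet genes, 9 were lower and 0 higher, with a median difference of -0.46, against -0.01 over all genes. The lower members were Cidea, Mogat1, Cidec, Cd36, Plin4, Pparg, Fitm1, Vldlr and Plin2. Without KO 44 the count was 5, and without both WT 2 and WT 3 it was 6.

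Cidea, a droplet protein that promotes transfer of lipid between droplets, had log2 intensities of 4.27, 4.54, 4.48 and 3.89 in KO livers and 8.29, 8.95, 4.87, 7.64 and 7.91 in WT livers. All KO values lay below all WT values, and WT 3 was far lower than the other WT livers. The difference was -3.24 ± 0.52, adjusted p = 0.000491, so that the intensity was 9.44-fold lower in KO livers. Cidec, which acts on droplets in the same way and enlarges them, read 4.95, 5.03, 4.95 and 5.09 in KO livers and 7.01, 8.07, 5.61, 7.49 and 8.26 in WT livers. The KO values were nearly equal to each other and the groups did not overlap, with WT 3 again the lowest of the WT livers. Its difference was -2.28 ± 0.45, adjusted p = 0.00493. Mogat1, an acyltransferase that makes diacylglycerol from monoacylglycerol, read 4.32, 4.75, 4.73 and 4.30 in KO livers and 7.34, 7.35, 5.34, 6.96 and 7.20 in WT livers. Here too the groups were separate and WT 3 stood nearest the KO livers. The difference was -2.31 ± 0.34, adjusted p = 0.000201.

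Pparg, the nuclear receptor that drives fat storage genes in adipocytes and in fatty liver, had values of 6.77, 6.55, 6.83 and 6.07 in KO livers and 7.72, 8.02, 7.38, 7.60 and 8.04 in WT livers. The groups were separate, with a difference of -1.19 ± 0.18, adjusted p = 0.000326. The fatty acid transporter Cd36 read 7.92, 7.96, 7.95 and 7.42 in KO livers and 9.77, 10.19, 9.09, 9.61 and 9.65 in WT livers. KO 44 was the lowest of all 9, and all KO livers lay more than 1 log2 unit below all WT livers. The difference was -1.85 ± 0.34, adjusted p = 0.00185, and a second probe set of this gene gave -1.75 ± 0.28. Plin4, a coat protein of droplets, read 6.20, 6.30, 6.03 and 5.35 in KO livers and 8.16, 8.70, 5.98, 8.02 and 8.02 in WT livers, so that WT 3 fell among the KO livers. Its difference was -1.81 ± 0.37, adjusted p = 0.00684, and the call was lost without KO 44, at an adjusted p of 0.0657.

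Smaller falls were measured for Fitm1, which partitions triglyceride into droplets (-0.91 ± 0.23, adjusted p = 0.0424), the lipoprotein receptor Vldlr (-0.72 ± 0.16, adjusted p = 0.0108) and the general droplet coat protein Plin2 (-0.53, adjusted p = 0.0453). Fitm1 lost its call without any 1 of KO 42, KO 44, WT 1, WT 2, WT 4 or WT 5, and Vldlr without KO 42, KO 44 or WT 2. Outside this list, Gpat3, an enzyme of the first step of glycerolipid synthesis, had a difference of -1.46 ± 0.29, adjusted p = 0.00493, lost without KO 44. Osbpl3, an oxysterol-binding protein homologue, had one of -2.33 ± 0.45, adjusted p = 0.00436. Not all storage genes moved. Dgat1, which adds the last acyl chain of triglyceride, had a difference of -0.09, adjusted p = 0.806, Dgat2, which does the same, 0.17, adjusted p = 0.849, and the lipase gene Pnpla2 0.23, adjusted p = 0.55.

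**Figure D1:**
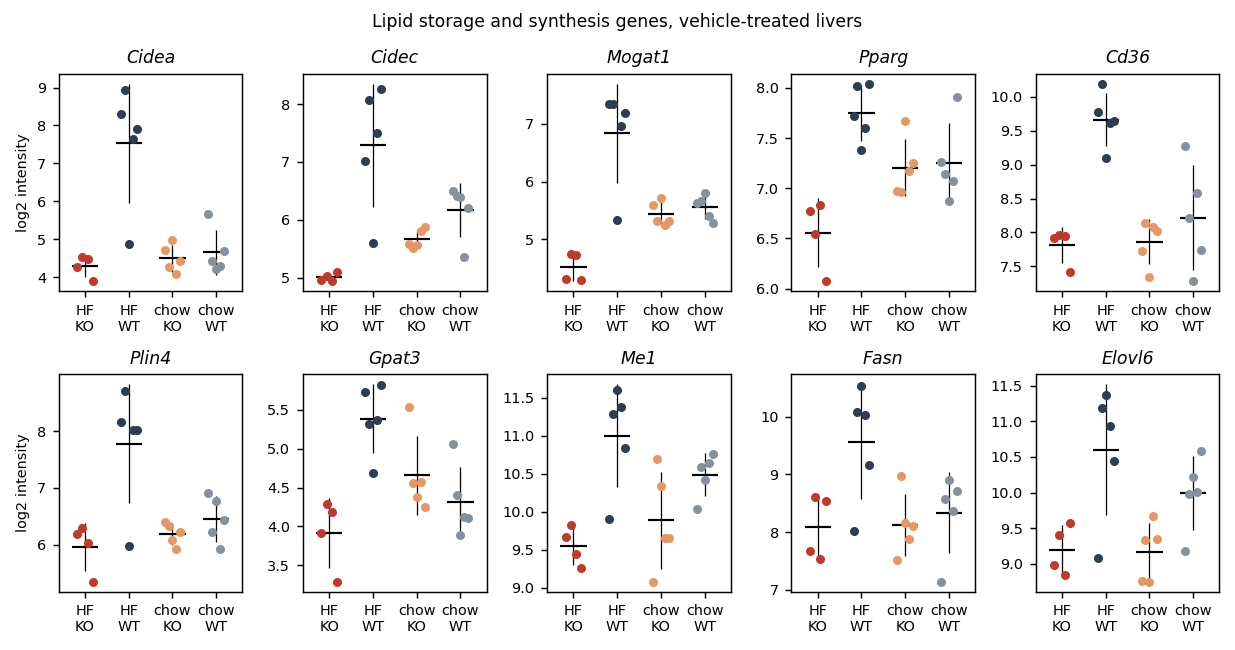
Log2 intensity of 10 lipid storage and synthesis genes in vehicle-treated livers, 1 point per animal, with the group mean (horizontal line) and SD (vertical line). HF is high-fat diet. From left to right in each panel are high-fat KO (n = 4), high-fat WT, chow KO and chow WT livers (n = 5 each). For Cidea the high-fat KO livers lie between 3.89 and 4.54, and 4 of the 5 high-fat WT livers lie at 7.64 or above.

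Several of these genes are also adipocyte genes. Of 6 measured adipocyte markers, 0 passed the threshold and 0 had an unadjusted p under 0.05. Adipoq, the adiponectin gene, had a mean log2 intensity of 3.0 over all liver arrays and a difference of 0.06. Plin1, the adipocyte droplet coat protein, had a difference of 0.13, and Lep, the leptin gene, one of -0.08, all 3 of them dim. Fabp4, a fatty acid binding protein of adipocytes and macrophages, was brighter and had -0.49 ± 0.25, adjusted p = 0.443. Of the 6, 4 were below 0. Of 9 measured markers of lipid-associated macrophages, 0 passed, 3 had an unadjusted p under 0.05 and all 9 had differences below 0. Their summed intensity did not overlap between the groups, at 729.7 to 799.2 in KO livers and 810.9 to 1487 in WT livers. Among them Mmp12 had -1.04 (adjusted p = 0.165), Itgax -0.62 (adjusted p = 0.0902) and Trem2 -0.13 (adjusted p = 0.822). The part of such cells in the falls above was not tested. In whole liver, fewer cells of a type and less RNA per cell cannot be told apart.

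Part of the fatty acid synthesis pathway was lower in KO livers. Of 17 measured genes, 4 were lower (Fasn, Me1, Elovl6 and Pnpla3) and 0 higher, with a median of -0.42 and 15 differences below 0. Without KO 42, or without WT 2, 1 of the 17 passed, and without both WT 2 and WT 3 the count was 0, with 7 unadjusted p under 0.05 and a median of -0.33.

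Me1, the malic enzyme that supplies NADPH for lipid synthesis, read 9.67, 9.83, 9.44 and 9.26 in KO livers and 9.90, 11.29, 11.60, 11.38 and 10.84 in WT livers. WT 1 was close to the KO livers and the other WT livers were at 10.84 or above. The difference was -1.45 ± 0.27, adjusted p = 0.00209. Fasn, the fatty acid synthase, read 7.67, 8.61, 7.53 and 8.54 in KO livers and 8.01, 10.08, 10.52, 10.03 and 9.17 in WT livers. The groups overlapped because WT 1 lay among the KO livers. The difference was -1.47 ± 0.36, adjusted p = 0.033, and leaving out 1 animal raised the adjusted p to as much as 0.184. Elovl6, which elongates palmitate, read 8.98, 9.40, 8.84 and 9.58 in KO livers and 9.08, 11.19, 11.36, 10.93 and 10.44 in WT livers, again with WT 1 among the KO livers. Its difference was -1.40 ± 0.30, adjusted p = 0.00897. A fit of only the high-fat vehicle groups lost the calls of Fasn and Elovl6. Pnpla3, a droplet-bound lipase homologue induced with lipogenesis, had a difference of -1.01 ± 0.26, adjusted p = 0.0377.

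Acaca, which makes malonyl-CoA for the synthase, had a difference of -0.79 ± 0.21, adjusted p = 0.0554. For Acly, which makes cytosolic acetyl-CoA, it was -0.90 ± 0.32, adjusted p = 0.197, and for Thrsp, a small protein induced with lipogenesis, -1.05 ± 0.35, adjusted p = 0.165. Scd1, the desaturase that makes oleate, was among the brightest genes and read 14.20, 14.22, 13.99 and 13.89 in KO livers and 13.66, 14.43, 14.45, 14.45 and 14.30 in WT livers. Its groups overlapped, with a difference of -0.18 ± 0.26, adjusted p = 0.84. Cholesterol synthesis genes gave 0 calls of 17 in either direction, where 7 had an unadjusted p under 0.05. Of the 17, 15 had differences above 0, with a median of 0.27, and Idi1, an isomerase of the isoprenoid branch, was the highest at 0.75 ± 0.23, adjusted p = 0.114. Mvk had the smallest p of the 17, at 0.59 ± 0.17, adjusted p = 0.0837.

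Targets of PPAR-alpha, the receptor that switches on fatty acid oxidation, were lower in part. Of 27 measured genes, 7 fell and 0 rose, with a median of -0.18. Those that fell were Cyp4a14, Vnn1, Acot2, Aldh3a2, Acot4, Acaa1b and Hsd17b4. Without KO 44, the lowest of the 9 livers for each of the 7, the count was 0, and 10 of the 27 had an unadjusted p under 0.05. Cyp4a14, a microsomal fatty acid hydroxylase, read 9.52, 9.29, 8.56 and 6.94 in KO livers and 10.90, 10.65, 9.21, 10.74 and 11.40 in WT livers, with WT 3 inside the KO range. The difference was -2.003 ± 0.47, adjusted p = 0.0227. Aldh3a2, which oxidises fatty aldehydes, read 11.41, 11.01, 11.05 and 10.66 in KO livers and 11.81, 11.995, 11.38, 11.77 and 12.15 in WT livers, and KO 40 and WT 3 were almost equal. Its difference was -0.79 ± 0.16, adjusted p = 0.00564. The acyl-CoA thioesterase genes Acot2 (-0.82 ± 0.19, adjusted p = 0.0216) and Acot4 (-0.77 ± 0.17, adjusted p = 0.0158) belong to a family of near-identical copies, so signal may be shared between them. The carnitine palmitoyltransferase Cpt1a, the control point of mitochondrial oxidation, had a difference of 0.06 ± 0.13, adjusted p = 0.904. The mitochondrial genes Hadha (0.02), Acadvl (0.02) and Acadl (-0.09) were also close to 0, and Ppara itself had 0.03. Fgf21, a fasting hormone made by liver, had a difference of -0.93 ± 0.31, adjusted p = 0.162. Angptl4, also without a call, went the other way, at 0.98 ± 0.35, adjusted p = 0.201. Of the 27 differences, 18 were below 0 and 9 above.

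Male-biased genes of mouse liver were higher in KO livers. Of 10 measured, 5 rose and 0 fell, with a median of 0.79. Those that rose were Hsd3b5, Slco1a1, Cyp7b1, Susd4 and C6. The count was 3 without KO 44 and 4 without both WT 2 and WT 3. Of 14 measured female-biased genes, 3 fell (Cyp2b9, Hao2 and Cyp2b13) and 0 rose, with a median of -0.09. That count was 1 without KO 42, without KO 44 or without WT 2. All of the mice were male.

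Hsd3b5, a steroid dehydrogenase of male liver, had the largest rise. It read 12.17, 11.97, 12.76 and 12.80 in KO livers and 9.07, 4.42, 11.24, 8.45 and 9.82 in WT livers. The KO livers were close together, while WT livers were spread over more than 6 log2 units, with WT 2 by far the lowest and WT 3 nearest the KO livers. The difference was 3.82 ± 0.67, adjusted p = 0.00139, a 14.2-fold higher intensity in KO livers, and it ranged from 2.78 to 4.48 when 1 animal was left out. Slco1a1, a transporter of organic anions and steroid conjugates, read 10.84, 10.53, 10.63 and 10.63 in KO livers and 8.19, 4.50, 10.13, 8.56 and 9.52 in WT livers, with the same order of WT livers at both ends. Its difference was 2.48 ± 0.55, adjusted p = 0.0136, and without KO 44 the adjusted p was 0.0532. The standard errors here use the spread of all 39 liver arrays. A fit of only the high-fat vehicle groups lost the calls of Hsd3b5 and Slco1a1.

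Cyp7b1, the hydroxylase of the alternative bile acid pathway, read 8.97, 8.61, 9.21 and 9.51 in KO livers and 7.82, 6.22, 7.55, 6.93 and 7.55 in WT livers. The groups were separate, WT 2 was again the lowest, and the difference was 1.86 ± 0.29, adjusted p = 0.000464. The complement gene C6 (0.997 ± 0.18, adjusted p = 0.00196) and Susd4, a complement regulator (1.34 ± 0.29, adjusted p = 0.0119), were separate as well, and the call of Susd4 was lost without KO 42, KO 44 or WT 2. Of the male-biased members without a call, Mup3, a major urinary protein gene (0.13), and Cyp2d9 (-0.02) stayed close to 0. Both are at the bright end of the array. The others, Elovl3 (0.59), Nudt7 (0.48) and Ugt2b1 (0.47), were above 0. Of the 10 members, 7 had an unadjusted p under 0.05.

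Cyp2b9 had the largest difference of all genes named. It read 4.71, 4.30, 3.96 and 3.46 in KO livers and 9.11, 10.56, 7.34, 7.74 and 8.81 in WT livers. The lowest WT liver was more than 2 log2 units above the highest KO liver, and WT 2, the lowest for the male-biased genes, was the highest for Cyp2b9. The difference was -4.61 ± 0.74, adjusted p = 0.00053, and it stayed between -4.95 and -4.14 with any 1 animal left out. Related Cyp2b genes are similar in sequence and probes may share signal, and Cyp2b13 had a difference of -0.54 ± 0.14, adjusted p = 0.037. Hao2, a peroxisomal hydroxyacid oxidase, read 2.91, 2.68, 2.97 and 3.09 in KO livers and 5.65, 5.12, 3.19, 3.80 and 3.33 in WT livers, where WT 1 and WT 2 were well above the rest. Its difference was -1.30 ± 0.30, adjusted p = 0.0196, lost without KO 41, KO 42, KO 44, WT 1 or WT 2. The female-biased genes Sult2a1, Sult3a1 and Cyp3a16 were dim on average over all liver arrays and had differences of -0.04, -0.004 and 0.002.

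**Figure D2:**
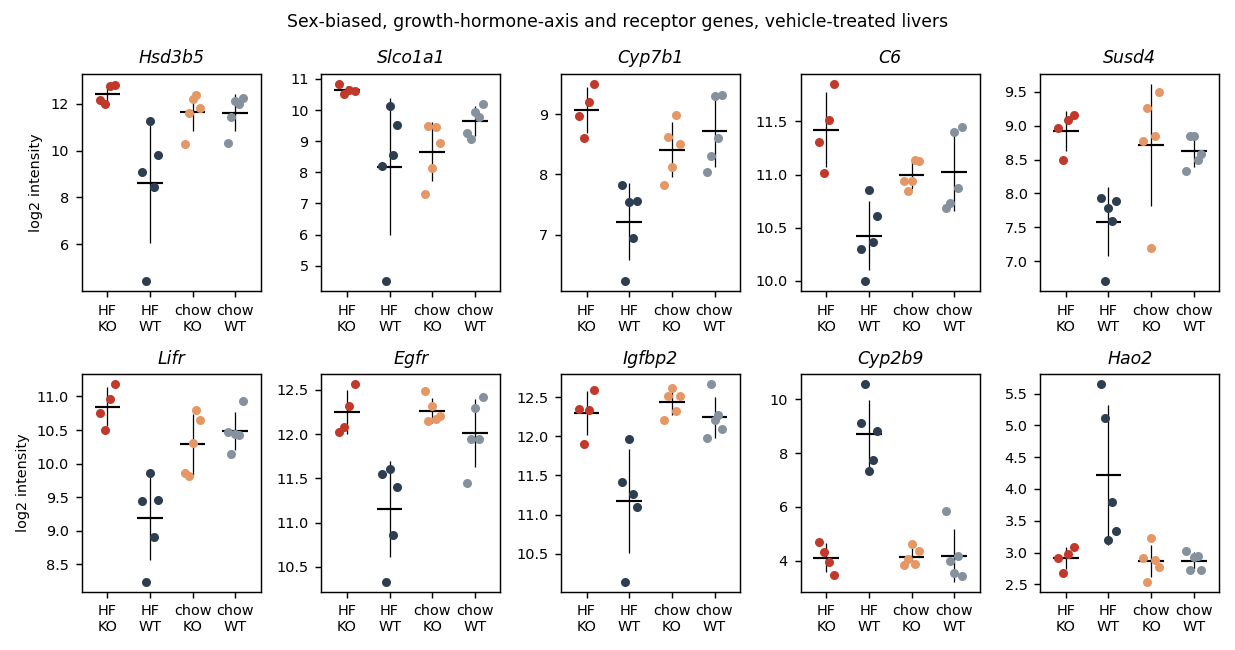
Log2 intensity of 10 genes in vehicle-treated livers, 1 point per animal, with the group mean (horizontal line) and SD (vertical line). They are male-biased genes, receptor and growth factor axis genes, and the female-biased Cyp2b9 and Hao2. From left to right in each panel are high-fat KO (n = 4), high-fat WT, chow KO and chow WT livers (n = 5 each). For Hsd3b5 high-fat KO livers lie at 11.97 or above, and high-fat WT livers run from 4.42 to 11.24.

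Promoter windows of 4 genes, chosen after their values were seen, are printed to show both directions of change. Hsd3b5 and Slco1a1, male-biased genes, rose, and Cyp2b9, female-biased, and the fatty acid transporter gene Cd36 fell. They are RefSeq windows of build GRCm38.p6, from 250 bases before to 50 bases after the start, read along the gene's strand. Capitals mark AGGTCA on either strand, the half-site bound by many nuclear receptors. The windows lie at chr3:98645485-98645784 (minus strand), chr6:141946913-141947212 (minus strand), chr7:26173159-26173458 (plus strand) and chr5:17835847-17836146 (minus strand).
Hsd3b5: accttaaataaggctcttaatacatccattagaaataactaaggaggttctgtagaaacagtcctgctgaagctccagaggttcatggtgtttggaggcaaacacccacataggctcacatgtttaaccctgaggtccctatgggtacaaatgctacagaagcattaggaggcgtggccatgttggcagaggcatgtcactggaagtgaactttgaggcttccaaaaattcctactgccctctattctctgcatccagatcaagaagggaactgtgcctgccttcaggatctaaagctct
Slco1a1: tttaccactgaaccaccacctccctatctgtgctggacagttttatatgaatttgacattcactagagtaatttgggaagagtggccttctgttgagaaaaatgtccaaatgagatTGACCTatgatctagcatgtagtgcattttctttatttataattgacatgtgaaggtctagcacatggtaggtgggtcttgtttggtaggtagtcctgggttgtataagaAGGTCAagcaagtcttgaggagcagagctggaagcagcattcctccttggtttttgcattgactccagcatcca
Cyp2b9: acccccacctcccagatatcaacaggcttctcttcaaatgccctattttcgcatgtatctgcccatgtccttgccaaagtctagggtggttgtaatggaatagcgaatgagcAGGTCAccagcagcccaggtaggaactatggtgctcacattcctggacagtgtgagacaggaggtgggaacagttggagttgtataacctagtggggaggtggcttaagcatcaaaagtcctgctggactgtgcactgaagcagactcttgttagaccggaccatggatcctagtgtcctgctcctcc
Cd36: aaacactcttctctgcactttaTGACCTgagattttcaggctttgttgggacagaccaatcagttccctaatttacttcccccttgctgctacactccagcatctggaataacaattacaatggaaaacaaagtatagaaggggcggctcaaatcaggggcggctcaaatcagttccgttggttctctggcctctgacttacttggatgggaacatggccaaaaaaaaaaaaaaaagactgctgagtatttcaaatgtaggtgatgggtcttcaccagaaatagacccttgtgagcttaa
Of the 30 genes named for the largest rises and falls, 24 had a window in the RefSeq table. AGGTCA on either strand was in 8 of these 24 (6 of 12 that rose and 2 of 12 that fell), and in 18.1% of all 27025 genes with a window. TTCNNNGAA, the palindrome bound by STAT factors, was in 0 of 24 and in 9.55% of all genes. CCAAT on either strand was in 11 of 24 and in 41.1% of all genes. Each motif was searched on both strands on its own, matches may overlap, and a match describes the letters only.

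Several receptors and secreted proteins also rose. Lifr, the leukemia inhibitory factor receptor, read 10.75, 10.50, 10.96 and 11.18 in KO livers and 9.45, 8.24, 9.86, 8.91 and 9.46 in WT livers. The groups were separate, with WT 2 the lowest and WT 3 the highest of the WT livers, as for Hsd3b5 and Slco1a1. Its difference was 1.66 ± 0.25, adjusted p = 0.000326, while the other, dimmer probe sets of Lifr gave 1.10 and 0.38, neither past the threshold. Egfr, the epidermal growth factor receptor and the 1 member that passed of 11 growth hormone axis genes, had a difference of 1.09 ± 0.18, adjusted p = 0.000667. The other probe sets of Egfr gave 0.98 and 1.07, neither past the threshold. In that list Igf1, the growth factor made under growth hormone, had 0.38 ± 0.11, adjusted p = 0.0735, and Socs2, a growth hormone-induced inhibitor, had 1.77 ± 0.71, adjusted p = 0.267. Ghr, the growth hormone receptor, had 0.10, and Stat5b, its main signal transducer, 0.20. The median of the 11 was 0.38.

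Avpr1a, the vasopressin receptor of liver, had a difference of 1.60 ± 0.29, adjusted p = 0.00185, and Il1r1, the interleukin 1 receptor, one of 1.01 ± 0.21, adjusted p = 0.0066. Tff3, a secreted trefoil peptide, read 8.03, 8.68, 8.95 and 9.85 in KO livers and 6.82, 6.27, 8.02, 7.10 and 6.83 in WT livers. KO 40 and WT 3 were almost equal, and the difference was 1.87 ± 0.38, adjusted p = 0.00644. C8b, a component of the complement attack complex, had a difference of 1.29 ± 0.21, adjusted p = 0.000624, and Ocln, a tight junction protein, one of 1.08 ± 0.19, adjusted p = 0.00162. Eif4ebp3, an inhibitor of translation initiation, had 1.38 ± 0.23, adjusted p = 0.000842, Sntg2, a syntrophin, 1.24 ± 0.26, adjusted p = 0.00733, and Ugt2b38, a glucuronosyltransferase with close relatives, 2.45 ± 0.60, adjusted p = 0.0329. Calls were lost without KO 44 for Tff3, without KO 42 or KO 44 for Sntg2, and without any 1 of KO 40, KO 42, KO 44, WT 1, WT 2 or WT 4 for Ugt2b38. Cela1, an elastase, had a difference of 1.17 ± 0.21, adjusted p = 0.00162. It was the 1 marker that passed of 8 of exocrine pancreas, and the others lay between -0.15 and 0.54.

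Among the falls outside lipid metabolism, Tceal8 had the smallest p of all genes. It read 8.08, 8.52, 8.27 and 8.23 in KO livers and 9.83, 10.55, 9.60, 10.30 and 9.92 in WT livers, without overlap, and the difference was -1.76 ± 0.23, adjusted p = 6.78e-05. Lgals1, the secreted lectin galectin 1, read 9.38, 9.56, 9.17 and 9.09 in KO livers and 11.37, 12.25, 10.30, 11.65 and 11.64 in WT livers. WT 3 was the lowest of the WT livers and still above every KO liver. The difference was -2.15 ± 0.30, adjusted p = 0.000156, a 4.42-fold lower intensity in KO livers. Anxa2, a membrane-binding annexin, had a difference of -1.48 ± 0.27, adjusted p = 0.00209, and Tubb2a, a beta-tubulin, one of -1.66 ± 0.32, adjusted p = 0.00436. Rcan2, a calcineurin regulator, had -1.49 ± 0.32, adjusted p = 0.0103, the uncharacterised 9130409I23Rik -1.62 ± 0.33, adjusted p = 0.00625, and Ly6d, a surface antigen, -1.87 ± 0.44, adjusted p = 0.0205. Ly6d rested in part on WT 2, at 9.22, and without that liver its adjusted p was 0.0890. It also lost its call without KO 40, KO 42 or KO 44, as Rcan2 did without KO 44 or WT 2 and 9130409I23Rik without KO 44. A second, dimmer probe set of Anxa2 gave -0.24 and did not pass.

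Of 12 measured targets of NRF2, the transcription factor of the antioxidant response, 3 fell and 0 rose. An unadjusted p under 0.05 was reached by 7 of the 12, and 8 differences were below 0 and 4 above. Srxn1, which repairs peroxiredoxins, read 7.16, 7.31, 7.31 and 7.38 in KO livers and 8.21, 9.11, 7.72, 8.23 and 8.16 in WT livers, without overlap. Its difference was -0.995 ± 0.18, adjusted p = 0.00162. The quinone reductase Nqo1 had -0.95 ± 0.25, adjusted p = 0.0457, and the epoxide hydrolase Ephx1 -0.59 ± 0.15, adjusted p = 0.0364. Other classical targets gave no call, such as Gclc, a subunit of the enzyme of glutathione synthesis (-0.33), and Hmox1, heme oxygenase 1 (0.16). Larger differences without a call were those of Cbr3 (-0.91), Aox1 (-0.49) and Osgin1 (0.61). The list's count was 1 without both WT 2 and WT 3, and 1 without any single one of KO 42, KO 44, WT 1, WT 2, WT 4 or WT 5.

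A single member or a few passed in several other lists. In glucose and insulin genes it was only Igfbp2, an insulin-like growth factor binding protein. Igfbp2 read 12.35, 11.91, 12.34 and 12.59 in KO livers and 11.42, 10.14, 11.97, 11.26 and 11.09 in WT livers. KO 41 and WT 3 were almost equal, and the difference was 1.12 ± 0.24, adjusted p = 0.0108. Pck1, the control enzyme of gluconeogenesis, had 0.19 ± 0.21, adjusted p = 0.774, and Igfbp1, which insulin represses, 0.35 ± 0.53, adjusted p = 0.844. Of 20 bile acid genes, Cyp27a1, a sterol hydroxylase, rose (0.32 ± 0.08, adjusted p = 0.0377) and Abcc3, a basolateral exporter, fell (-0.75 ± 0.18, adjusted p = 0.0317). Of 23 drug metabolism genes, Cyp1a2 rose (0.87 ± 0.18, adjusted p = 0.00626), and Cyp2c39 (-0.43 ± 0.11, adjusted p = 0.0342) and Gstm4 (-0.47 ± 0.12, adjusted p = 0.0477) fell. An unadjusted p under 0.05 was reached by 8 of the bile acid genes and 11 of the drug metabolism genes. Apom, a carrier in high-density lipoprotein, rose (0.66 ± 0.14, adjusted p = 0.0103), as did Agxt, which detoxifies glyoxylate (0.62 ± 0.14, adjusted p = 0.0138). Atf3, a stress-induced transcription factor, fell (-0.72 ± 0.15, adjusted p = 0.00625), and so did Cdc20, an activator of the anaphase-promoting complex (-0.75 ± 0.17, adjusted p = 0.0138). A second probe set of Cdc20, about as bright, gave -0.21 and did not pass, so the probe sets disagree. Cdc20 was the 1 call among 21 cell cycle genes, where 9 had an unadjusted p under 0.05. Of the 21 differences, 18 were below 0 and 3 above. Most of these calls rested on single animals. Those of Igfbp2 and Apom were lost without KO 44 or without WT 2, that of Agxt without KO 42, KO 44 or WT 2, and that of Cdc20 without KO 40, KO 42 or WT 2. Abcc3 lost its call without KO 44, WT 1, WT 2, WT 4 or WT 5, and Cyp2c39 without any 1 of KO 40, KO 42, KO 44, WT 2, WT 4 or WT 5. Cyp27a1 kept its call only when WT 3 was the animal left out, and Gstm4 only when it was WT 1. Cyp1a2 and Atf3 kept theirs with any 1 animal left out.

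Of 16 genes of the endocannabinoid system, 0 passed and 1 had an unadjusted p under 0.05. There Faah, which degrades anandamide, had 0.14 and Mgll, which degrades 2-arachidonoylglycerol, -0.48. Dimmer probe sets of Mgll gave -0.32, 0.33 and -0.06, none past the threshold, so its probe sets disagree in direction. The count was also 0 among 21 acute phase genes (9 with an unadjusted p under 0.05), 20 fibrosis and matrix genes (7) and 17 interferon-stimulated genes (1). It was 0 among 7 MHC class II (0), 18 oxidative phosphorylation (1), 13 ER chaperone (2) and 17 circadian clock genes (1). It was 0 too among 11 glucocorticoid and metallothionein genes (2) and 8 regulators of sterol synthesis and LDL uptake (3). In the acute phase list Lcn2, a neutrophil gelatinase-associated lipocalin, read 6.07, 7.13, 6.84 and 7.93 in KO livers and 11.98, 11.20, 7.80, 8.31 and 8.13 in WT livers. WT 1 and WT 2 were far above the other livers, and the difference was -2.49 ± 0.92, adjusted p = 0.219. Of the 21 acute phase differences, 15 were below 0 and 6 above. Hamp, with the smallest p of that list, was among those above, at 0.48 ± 0.14, adjusted p = 0.0752. So were Fgb (0.29, adjusted p = 0.144) and Fgg (0.24, adjusted p = 0.174). The fibrosis list had a median of -0.25, with Col1a1 at -0.78, a main fibrillar collagen.

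**Figure D3:**
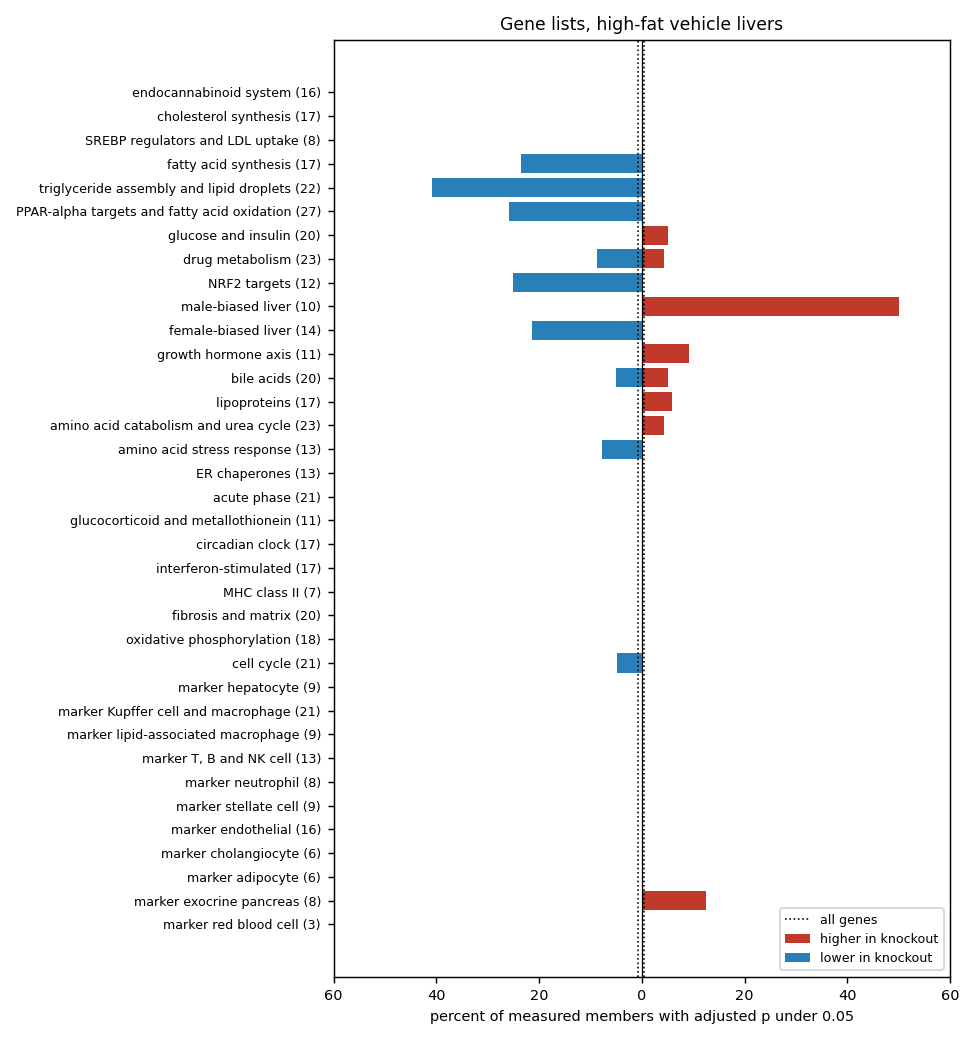
Percent of the measured members of each gene list with an adjusted p under 0.05 in high-fat vehicle livers. Bars to the right show members higher in KO than in WT livers and bars to the left members lower. The number of measured members is in brackets, and dotted lines mark 0.48% (higher) and 0.71% (lower) of all genes. The longest bars are 5 of 10 male-biased genes higher and 9 of 22 triglyceride assembly and droplet genes lower.

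Of the markers of other cell types, 0 passed among 21 of Kupffer cells and macrophages (3 with an unadjusted p under 0.05), 16 of endothelium (3) and 9 of stellate cells (2). The count was 0 among 13 of T, B and NK cells (1), 8 of neutrophils (2), 6 of cholangiocytes (1) and 3 of red blood cells (0). Summed intensities of Kupffer cell and macrophage markers overlapped, at 8226 to 9437 in KO livers and 5208 to 11470 in WT livers. So did those of stellate cells, at 5046 to 6889 in KO livers and 4632 to 7479 in WT livers. The 16 endothelial markers summed to 4997 to 5473 in KO livers and 4049 to 4772 in WT livers, which did not overlap. Of these 14 had differences above 0 and Kdr, the vascular endothelial growth factor receptor, had 0.46 (adjusted p = 0.2). The part of endothelial cells in the other differences was not tested.

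The genotype difference was set against that in chow-fed livers by the difference of both. It passed for 799 genes (4.17%), 544 with a more positive genotype difference in high-fat livers (2.84%) and 255 with a more negative one (1.33%). This count rested on 2 chow-fed KO livers, and it was 198 without KO 15 and KO 17. It was 499 without KO 17 alone. Among high-fat livers it was 476 without KO 40, 466 without KO 42, 510 without KO 44, 514 without WT 2 and 478 without WT 4. The test shares the 9 high-fat arrays with the comparison above, so the values below are not independent of it.

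For Cidea, Cyp2b9 and Hsd3b5, chow-fed livers of both genotypes lay near the high-fat KO livers. Cidea averaged 4.49 ± 0.36 (SD, n = 5) in chow-fed KO livers and 4.66 ± 0.59 (SD, n = 5) in chow-fed WT livers. In high-fat livers it averaged 4.29 ± 0.29 (SD, n = 4) in KO and 7.53 ± 1.56 (SD, n = 5) in WT. The difference of differences was -3.07 ± 0.71, adjusted p = 0.0113, and -2.83, adjusted p = 0.0603 without chow-fed KO 15 and KO 17. Cyp2b9 averaged 4.14 ± 0.33 (SD, n = 5) in chow-fed KO livers and 4.19 ± 0.97 (SD, n = 5) in chow-fed WT livers. Among vehicle-treated livers the high-fat WT group stood above, at 8.71 ± 1.26 (SD, n = 5), and the difference of differences was -4.57 ± 1.02, adjusted p = 0.00889, and -4.51, adjusted p = 0.0407 without those 2 livers. Hsd3b5 averaged 11.65 ± 0.83 (SD, n = 5) in chow-fed KO livers and 11.61 ± 0.78 (SD, n = 5) in chow-fed WT livers, with 3.79 ± 0.92, adjusted p = 0.0144, and 3.51, adjusted p = 0.0653 without them.

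The dependence on diet passed both with and without those 2 livers for Mogat1 (-2.20 ± 0.47, adjusted p = 0.00626), Pparg (-1.15 ± 0.25, adjusted p = 0.00805), Gpat3 (-1.80 ± 0.40, adjusted p = 0.00805) and Lgals1 (-2.17 ± 0.41, adjusted p = 0.00223). It also did for Tceal8 (-1.87 ± 0.32, adjusted p = 0.000955), Anxa2 (-1.75 ± 0.37, adjusted p = 0.00646), Cyp7b1 (2.16 ± 0.40, adjusted p = 0.00191) and Lifr (1.86 ± 0.35, adjusted p = 0.00195). For Slco1a1 (3.46 ± 0.76, adjusted p = 0.00783), Ugt2b38 (3.68 ± 0.83, adjusted p = 0.00941), C6 (1.03 ± 0.25, adjusted p = 0.0146) and Srxn1 (-1.05 ± 0.24, adjusted p = 0.0114) it was lost without them, with adjusted p between 0.058 and 0.0677. For Cd36 (-1.50 ± 0.46, adjusted p = 0.0563), Cidec (-1.78 ± 0.62, adjusted p = 0.0954) and Fasn (-1.26 ± 0.50, adjusted p = 0.152) it did not pass in either. Of 21 acute phase genes, 6 had a more negative genotype difference in high-fat livers, such as Lcn2 (-5.25 ± 1.27, adjusted p = 0.014), and 0 of the 21 passed without KO 15 and KO 17, when 9 had an unadjusted p under 0.05. In KO 15 Lcn2 read 13.29, above each of the other 9 chow-fed vehicle livers, which had 9.16 or less.

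In AM251-treated high-fat livers, which share no arrays with the comparison above, 440 genes (2.3%) differed between KO and WT livers, with 1.08% of all genes higher and 1.22% lower. Both comparisons take their standard errors from the spread of all 39 liver arrays. Of the 228 genes, 187 had the same sign there. The share of all genes with the same sign was not computed, here or for the chow-fed livers below, so these sign counts have no baseline. The call and sign were shared by 55, which is 24.1% of the 228 and 12.5% of the 440, and 2 were called with the opposite sign. In chow-fed vehicle livers 124 of the 228 had the same sign, and 4 were called with the same sign, 1.75% of the 228 and 0.308% of the 1297 genes (6.77%) called there (2.94% higher and 3.83% lower). The count of 1297 was 154 without chow-fed KO livers 15 and 17.

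Of the 22 triglyceride assembly and droplet genes, 6 were lower and 0 higher in KO livers under AM251, with a median of -0.34. The genotype difference was -2.14 ± 0.32, adjusted p = 2.21e-05 for Cd36, -1.85 ± 0.42, adjusted p = 0.00804 for Cidec, -1.64 ± 0.32, adjusted p = 0.00134 for Mogat1 and -0.87 ± 0.17, adjusted p = 0.00155 for Pparg. That of Cidea was -1.39 ± 0.49, adjusted p = 0.169, with means of 4.15 ± 0.30 (SD, n = 5) in KO and 5.54 ± 1.46 (SD, n = 5) in WT livers. Of the 27 PPAR-alpha targets, 21 were lower in KO livers under AM251. Tff3 (1.76 ± 0.36, adjusted p = 0.00225) and Avpr1a (1.29 ± 0.27, adjusted p = 0.00375) were higher under AM251 too.

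Lipogenic genes differed the other way under AM251. The difference between the genotype effect under vehicle and that under AM251 passed for 108 genes (0.564%), 37 more positive under vehicle (0.193%) and 71 more negative (0.371%). The count was 67 without vehicle-treated KO 42, 70 without WT 4 and 66 without AM251-treated KO 46. Fatty acid synthesis gave 12 of 17 genes more negative under vehicle, with a median of -1.60, and 6 without both WT 2 and WT 3. Cholesterol synthesis gave 9 of 17, with a median of -1.15, and 8 without them. Fasn averaged 9.10 ± 0.28 (SD, n = 5) in KO livers and 6.25 ± 0.24 (SD, n = 5) in WT livers under AM251, so that its genotype difference was 2.85 ± 0.34, adjusted p = 4.88e-07. Under vehicle it was -1.47, and the difference of both was -4.33 ± 0.50, adjusted p = 3.63e-06. The corresponding values were -2.81 ± 0.41, adjusted p = 9.87e-05 for Elovl6, -1.86 ± 0.37, adjusted p = 0.00612 for Me1, -2.67 ± 0.44, adjusted p = 0.000766 for Acly and -1.81 ± 0.36, adjusted p = 0.00662 for Scd1. For Fdps, an enzyme of isoprenoid synthesis, it was -2.31 ± 0.31, adjusted p = 5.25e-05, and for Got1, the cytosolic aspartate aminotransferase, -2.21 ± 0.32, adjusted p = 9.33e-05.

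Among male-biased genes, Hsd3b5 had a genotype difference of 0.61 ± 0.63, adjusted p = 0.825 under AM251, with 12.15 ± 0.40 (SD, n = 5) in KO and 11.54 ± 0.87 (SD, n = 5) in WT livers. The test of vehicle against AM251 gave 3.22 ± 0.92, adjusted p = 0.125. For Cyp7b1 it gave 2.15 ± 0.40, adjusted p = 0.00372 and for Lifr 1.497 ± 0.35, adjusted p = 0.0281, both past the threshold, and for Slco1a1 2.26 ± 0.76, adjusted p = 0.275. Tubb2a, at 0.15 under AM251, had -1.81 ± 0.44, adjusted p = 0.0407. Cyp2b9 was lower in KO livers under AM251 too, at -2.74 ± 0.70, adjusted p = 0.0225, and the test of the change was -1.87 ± 1.02, adjusted p = 0.73.

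**Figure D4:**
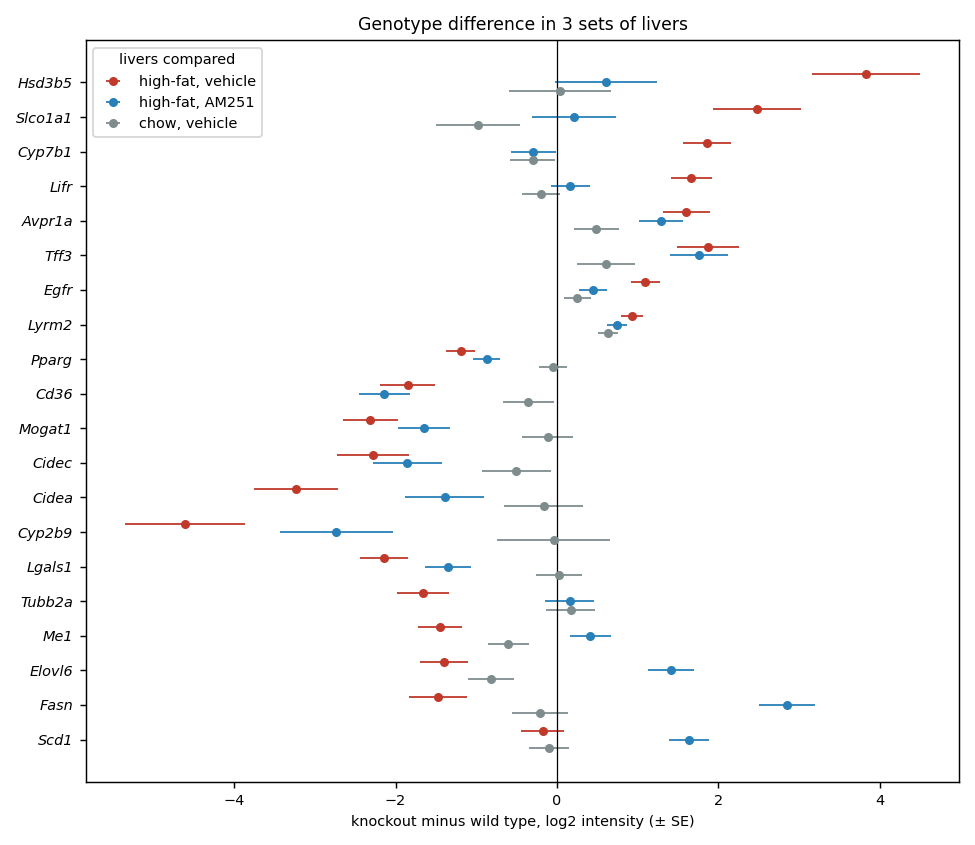
Genotype difference (KO minus WT, log2 intensity) with its standard error for 20 genes in 3 sets of livers: high-fat vehicle (red), high-fat AM251 (blue) and chow vehicle (grey). Points right of 0 are higher in KO livers. Cidea, Cidec, Mogat1, Cd36 and Pparg lie left of 0 under vehicle and AM251 on the high-fat diet, and Fasn, Elovl6 and Scd1 lie right of 0 under AM251.

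Genes near Cnr1 were measured because a knockout line keeps flanking sequence of the strain in which the allele was made. Of the 20 nearest measured genes, 10 on each side, 1 was higher in KO livers and 0 were lower, with a median of -0.05. It was Ube2j1, an enzyme of ubiquitin transfer at the endoplasmic reticulum, 7 measured genes before Cnr1. It read 8.93, 8.75, 8.92 and 8.9997 in KO livers and 8.80, 8.18, 8.29, 8.19 and 8.44 in WT livers, with KO 41 just below WT 1, and the difference was 0.52 ± 0.10, adjusted p = 0.00564. A second probe set of Ube2j1 gave 0.03 ± 0.10, so the probe sets disagree. The first probe set had 0.38, adjusted p = 0.0217, in high-fat AM251 livers and 0.51, adjusted p = 0.000905, in chow-fed vehicle livers. That chow value was 0.37, adjusted p = 0.081, without KO 15 and KO 17, and chow-fed AM251 livers gave 0.22, adjusted p = 0.318. Lyrm2, a mitochondrial protein gene 11 measured genes before Cnr1, was chosen after its values were seen. It read 5.88, 5.52, 6.40 and 6.18 in KO livers and 4.91, 5.12, 5.17, 4.83 and 5.27 in WT livers, without overlap, and its difference was 0.93 ± 0.14, adjusted p = 0.000201. Under AM251 Lyrm2 had 0.74 ± 0.13, adjusted p = 0.000239, and in chow-fed vehicle livers 0.63, adjusted p = 0.0018. The chow value was 0.42, adjusted p = 0.134, without KO 15 and KO 17, and in chow-fed AM251 livers Lyrm2 had 0.33, adjusted p = 0.241. Whether sequence differences under the probes take part was not tested.

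**Figure D5:**
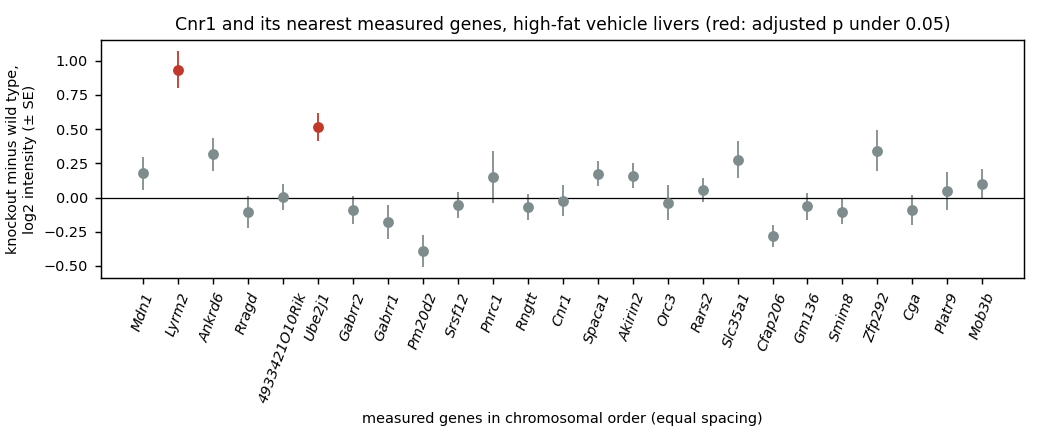
Genotype difference (KO minus WT, log2 intensity, ± standard error) in high-fat vehicle livers for Cnr1 and 12 measured genes on each side, in chromosomal order with equal spacing. Red points have an adjusted p under 0.05. They are Lyrm2 at 0.93 and Ube2j1 at 0.52, and Cnr1 itself is at -0.02.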

How the data were processed

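Total RNA of mouse liver was measured on 1-colour microarrays with labelled cRNA, 1 array per animal. The authors deposited linear probe set intensity values made with RMA (robust multi-array average: background correction, normalization and probe summary), per the submitters' processing notes, with a version not given in the sources used here. No detection calls were used, so near the dim end a fold understates the change, and the number of arrays limits the precision of every value.

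Intensities were taken to log2. Of 38385 probe sets, 24478 had 1 gene symbol in the array's annotation, which can be old, and the brightest probe set in liver stood for each of 19147 genes, of which 3958 had several. The 65 probe sets with several symbols and the 13842 that the annotation does not list were tested apart. Limma 3.58.1 (in R 4.3.3) fitted 1 mean per group over all 39 liver arrays, and two-sided moderated p-values were adjusted over all genes (Benjamini-Hochberg, threshold 0.05). Differences of differences were contrasts of the same fit. Simulated data with known changes were used to check the fit. Tables and figures were made with Python 3.11.15 (pandas 2.3.3, numpy 2.4.6, matplotlib 3.10.9).

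Named genes are the 15 largest rises and 15 largest falls whose arrays do not overlap, the 8 largest in each direction of both differences, up to 8 called members and the 4 of smallest p of each list, Cnr1, the 10 measured genes on each side, and a few fixed lipid and glucose genes. Some genes that meet this rule are not described in the text. List members named beyond this rule, and plotted genes, were chosen after their values were seen. The 36 lists held 616 genes, 514 of them measured. The comparison, members and lists were chosen with earlier results of these data known. Alternatives were other fits, weights, normalizations, probe set rules, filters and left-out arrays. Adipose tissue arrays were not analysed here.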

Additional observations from a re-analysis of the deposited data

Results flagged for a closer look

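Of 174 groups of values, 87 genes in high-fat KO and WT vehicle livers, 19 held a liver far from the others of its group, where chance gives about 1 in 20. KO 42 stood apart for Cpt1a (12.30), Ocln (7.16) and Slc10a5 (8.49). KO 44 stood apart for Acot4 (7.18), B930025P03Rik (5.44) and Cd36 (7.42). WT 1 stood apart for Cnr1 (5.51), Il1r1 (8.32) and Scd1 (13.66). WT 2 stood apart for Cdc20 (6.95), Eif4ebp3 (7.27), Ly6d (9.22), Mia2 (7.47) and Susd4 (6.70). WT 3 stood apart for Fitm1 (9.26), Hsd17b4 (11.93), Mogat1 (5.34) and Plin4 (5.98). WT 5 stood apart for Cpt1a (12.57). Values in brackets are log2 intensities.

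Up to 8 of the 87 genes in each direction were named because they passed the test against chow livers. The next count was partly fixed by that choice, and 4.17% of all genes passed. The genotype difference of 34 of the 87 genes differed between high-fat and chow livers by the difference of both effects, given in brackets as log2. It was more positive in high-fat livers in Hsd3b5 (3.79), Ugt2b38 (3.68), Slco1a1 (3.46), Cyp7b1 (2.16), Lifr (1.86), Mia2 (1.77), Slc10a5 (1.76), 4833411C07Rik (1.72) and Ocln (1.05). Further ones were C6 (1.03), C8b (0.98), Egfr (0.84) and Cyp27a1 (0.39). It was more negative in high-fat livers in Lcn2 (-5.25), Saa2 (-4.91), Cyp2b9 (-4.57), Orm2 (-4.34), Cidea (-3.07), Mt1 (-3.04), Ly6d (-2.36), Mogat1 (-2.20) and Cyp4a14 (-2.18). Further ones were Lgals1 (-2.17), Tceal8 (-1.87), Tubb2a (-1.83), Gpat3 (-1.80), Anxa2 (-1.75), Rcan2 (-1.51), Nqo1 (-1.25), Pparg (-1.15) and Srxn1 (-1.05). Others were Atf3 (-0.84), Acot4 (-0.83) and Vldlr (-0.73). Without chow-fed KO 15 and KO 17 most of these no longer passed, among them Hsd3b5, Slco1a1, Cidea, Ugt2b38, Lcn2, Saa2 and Orm2. Those that still passed were Cyp7b1, Lifr, Slc10a5, Cyp2b9, Mogat1, Lgals1, Tceal8, Gpat3, Anxa2 and Pparg. Of the 228 genes of CB1 loss, 103 passed the diet difference as reported, against 4.17% of all genes. Without KO 15 and KO 17, 38 of the 228 passed, and 198 of all 19147 genes. The 228 were called on the same 9 high-fat arrays that enter the diet difference. These shared counts are therefore not independent and do not test dependence on diet.

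Up to 8 of the 87 genes in each direction were likewise named because they passed the test of vehicle against AM251. This count too was partly fixed by that choice, and 0.564% of all genes passed. The genotype difference of 21 of the 87 genes differed between vehicle and AM251 on the high-fat diet. It was more positive under vehicle in Acot1 (2.29), Cyp7b1 (2.15), E2f8 (2.04), Osgin1 (2.01), Derl3 (1.65), Nlrp12 (1.62), Lifr (1.497) and B930025P03Rik (1.47). It was more negative under vehicle in Fasn (-4.33), Fst (-3.06), Elovl6 (-2.81), Acly (-2.67), Thrsp (-2.62), Gstm3 (-2.41), Fdps (-2.31), Got1 (-2.21) and Me1 (-1.86). Further ones were Tubb2a (-1.81), Scd1 (-1.81), Acaca (-1.60) and Pnpla3 (-1.53).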

How the results depend on the processing

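Directions did not reverse for any named call under the alternatives run: over all of them, 6017 gene values kept their side of the threshold, 94 gained it and 623 lost it. For the 228 genes of CB1 loss, array weights gave 588 (51.5% higher), leaving out both WT 2 and WT 3 (chosen after seeing the data) gave 86, and leaving out 1 animal gave 75 to 255. A fit of only both groups gave 179 (49.2% higher), 117 of them among the 228. For the diet difference (799), only the compared groups gave 161, leaving out chow-fed KO 15 and KO 17 gave 198, those and chow-fed WT 3 gave 251, leaving out high-fat WT 2 and WT 3 gave 410, and 1 animal gave 466 to 1195. For the AM251 difference (108), these were 163 with only the compared groups, 230 with array weights, 39 without WT 2 and WT 3 and 66 to 136 with 1 animal left out. Quantile normalization moved the share of higher calls to 29.6% of 216 (40.4% as reported), 51.1% of 848 (68.1%) and 23.1% of 130 (34.3%). It changed the median of all genes by less than 0.1. The fit of only the compared groups lost 28 named calls of CB1 loss, among them Hsd3b5 (adjusted p = 0.0884), Slco1a1 (0.175), Fasn (0.123) and Elovl6 (0.0961). The mean of all probe sets lost Egfr (0.17). The cause of these shifts was not tested. No paired analysis was possible because the KO animals 40, 41, 42 and 44 and the WT samples 1 to 5 share no number. Dim probe sets, such as Cyp2b9 and Cidea in KO livers, carry little signal over background, and no detection call says how much.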

Other observations

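Probe sets without a single gene symbol were tested on their own. Of 13907, 8 were higher and 10 lower in KO livers than in WT livers (0.129% called).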
